A study of Homo sapiens with 24 samples.

Results

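Lung cancer cells of the line H1299 that carried the K3R form of SIRT6 were compared with H1299 cells that carried the empty vector. The members are the 6 RNA-seq libraries of these cells, 3 with K3R and 3 with the vector (Ctr), of 24 libraries in the series, chosen by cell line, construct and library number as labelled. H1299 is an established human line of non-small cell lung cancer that lacks functional p53. The cells were grown in RPMI1640 with serum and stably carried a lentivirus, which held FLAG-tagged SIRT6 in the K3R groups and no SIRT6 in the Ctr groups. K3R is labelled as an acetylation-deficient mutant. Which lysines were exchanged is not stated in the labels. Each group has library 1-1 (biological replicate 1, batch 1), library 1-2 (biological replicate 1, batch 2) and library 2-2 (biological replicate 2, batch 2). H1299 cells with wild-type SIRT6 (WT) or the acetylation-mimetic K3Q form, and A549 lung cancer cells with K3R or Ctr, 3 libraries in each group, serve below for comparison. Whether the transduced cells are pools or clones is not given in the sources used here, and all SIRT6 forms were expressed beside the cells' own SIRT6. Whether 1-1 and 1-2 came from separate cultures is not stated, so the p-values may in part measure technical spread.

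SIRT6 is a nuclear enzyme that uses NAD to remove acetyl and longer acyl groups from lysines, among them lysines of histone H3 at gene promoters. It is known for restraining transcription of glycolytic and inflammatory genes and for its part in DNA repair. Arginine keeps the positive charge of lysine but cannot be acetylated, whereas glutamine resembles acetylated lysine, which is why such exchanges are used to block or to imitate acetylation.

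The 6 libraries held 16143239 to 22856407 gene counts, of which 2.309% to 3.726% came from mitochondrial mRNAs. SIRT6 measured 45.3, 34.6 and 38.4 CPM (counts scaled to library size) in Ctr libraries 1-1, 1-2 and 2-2, and 4220, 2739 and 6035 CPM in the matching K3R libraries. Every K3R library was far above every Ctr library, a 109.5-fold difference (log2 6.78, SE 0.44, edgeR quasi-likelihood test, adjusted p = 1.16e-05), and the counts do not separate the introduced from the cells' own transcript. K3R library 2-2 stood apart on the first principal component of the 12 H1299 libraries, at 45.29 against 10.71 and 7.308 for the other K3R libraries and -38.36 to -22.35 for Ctr. WT library 2-2 stood apart in the same way, at 52.99 against 7.563 and 15.24, and the K3Q libraries, which held the most SIRT6, lay at -21.24 to -11.61. None of the other 6 sirtuins passed the test, and the one with the lowest p was SIRT1, at 44.3, 44.9 and 44.7 CPM in Ctr and 38.8, 37.4 and 35.9 CPM in K3R (log2 -0.26, adjusted p = 0.236). The summed level of 6 epithelial markers was 655 to 1120 CPM in Ctr and 808 to 888 CPM in K3R, nearly all of it KRT8 and KRT18, while EPCAM, CDH1 and KRT19 reached at most 0.315, 0.63 and 0.405 CPM in any library. That of 6 mesenchymal markers was 1010 to 1500 and 1150 to 1440 CPM, most of it VIM at 874 to 1360 CPM. Markers of immune, endothelial, erythroid and fibroblast cells summed to at most 6.58 CPM in any of the 6 libraries. Of the 6 markers of lung lineage 4 had a Ctr mean under 0.1 CPM, and the 6 together summed to 2.95 to 3.51 CPM in Ctr and 2.5 to 3.5 CPM in K3R, so most lung lineage markers were at or near 0 in both groups.

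Of 16262 genes tested, 528 passed at an adjusted p under 0.05, which is 3.25%. Of these 319 rose with K3R (1.96%) and 209 fell (1.29%). With the replicate number as a block, a fit that compares like-numbered libraries, 1392 genes passed (8.56%), 836 of them up (5.14%) and 556 down (3.42%), and all 528 were among them in the same direction. Counts of called list members below are to be read against these shares of all tested genes, without or with the block. All 319 and all 209 moved one way in each of the 3 matched differences, and in 311 and 206 of them the groups did not overlap, against 10% and 9.7% of all tested genes that did not overlap in the respective direction. Both features are favoured by the choice of these genes with a test on the same libraries. The median change was 0.93 on the log2 scale among genes that rose and -1.06 among those that fell. Changes of at least 2-fold were seen in 149 rises and 116 falls, and of at least 8-fold in 28 and 4. Without SIRT6 itself, the risen genes had a median matched difference of 0.76, 0.84 and 1.11 in libraries 1-1, 1-2 and 2-2, and in 241 of 318 the difference was greatest in 2-2. The falls were spread more evenly, with medians of -1.01, -0.89 and -1.07. Refits without K3R library 1-1 or 2-2 called 102 and 178 genes, of which 99 and 170 were among the 528. Without Ctr 1-1, 1-2 or 2-2 they called 357, 224 and 214 genes, with 281, 207 and 199 of the 528 among them. Without K3R 1-2 the fit called 553 genes, 417 of them among the 528. With the libraries of biological replicate 1 summed 44 genes passed, and in batch 2 alone 20, in fits that hold fewer samples.

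**Figure D1:**
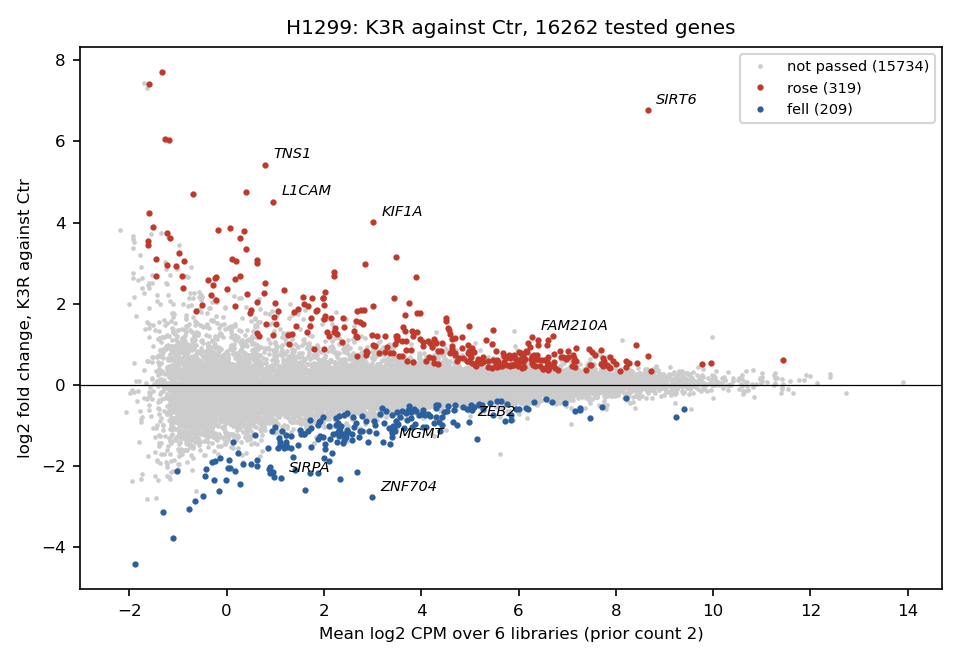
Each point is 1 of 16262 tested genes, with its mean log2 CPM over the 6 libraries on the horizontal axis and its log2 fold change, K3R against Ctr, on the vertical axis. The 319 risen genes (red) and 209 fallen genes (blue) reach further from 0 at low levels than at high levels, and SIRT6 stands alone among abundant genes at a log2 change of 6.78.

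KIF1A, L1CAM and TNS1 were among the genes with the greatest rises. KIF1A, a kinesin motor that carries vesicles along axons, measured 2.39, 0.832 and 3.12 CPM in Ctr and 36.1, 22.8 and 44.4 CPM in K3R. All K3R libraries exceeded all Ctr libraries, by 16.07-fold on average (log2 4.01, SE 0.39, edgeR adjusted p = 0.000442). KIF1A lies on chromosome 2 at 240713761-240821036 (GRCh38, minus strand). L1CAM, a cell adhesion protein of growing axons that also marks invasive carcinomas, was at 0.99, 0.0594 and 0.227 CPM in Ctr and 10.4, 4.5 and 17.7 CPM in K3R (log2 4.52, SE 0.77, adjusted p = 0.00812). These were the 2 of 19 tested neuronal genes that passed (4 with the block), both upward, where 1.96% of all tested genes rose. L1CAM lies in a stretch of the X chromosome described below. The median of the 19 was 0.33 against -0.014 over all tested genes, with matched medians of 0.12, 0.74 and 0.41 in libraries 1-1, 1-2 and 2-2. TNS1, which encodes tensin 1 and links integrin adhesions to actin, was nearly silent in Ctr at 0.405, 0 and 0.284 CPM and reached 12.5, 11 and 8.86 CPM in K3R. Its change was a log2 of 5.43 (SE 0.46, adjusted p = 0.00016), and the gene spans 217799588-218033982 on the minus strand of chromosome 2.

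KIF1A is among the 12 largest rises of genes with a mean log2 CPM of at least 1. L1CAM and TNS1 lie below that level. The other genes of the 12 had varied roles. FBXO2, a subunit of a ubiquitin ligase that recognises glycoproteins, rose from 8.46, 2.79 and 1.99 CPM to 43.8, 17.1 and 50 CPM. CPA4, a secreted carboxypeptidase, rose from 4.86, 1.01 and 2.5 CPM to 20.3, 12.5 and 35.4 CPM. SERINC2, a membrane protein of the serine incorporator family, rose from 2.7, 1.13 and 1.36 CPM to 11, 9.69 and 17.2 CPM. In each of these 3 genes the lowest K3R library lay above the highest Ctr library, and the log2 changes were 3.16, 2.97 and 2.79. SHC2, an adaptor of receptor tyrosine kinases, rose by a log2 of 2.68 (adjusted p = 0.0282), and PDGFA, a growth factor chain for mesenchymal cells, by 2.28 (adjusted p = 0.00348). MATK, a kinase that inhibits SRC family kinases, NXPH4, a secreted neurexophilin, and MMP2, a protease that cleaves type IV collagen, rose by 2.16, 2.15 and 2.15. AC093627.9, a symbol without a position in the annotation used here, rose by 2.35. The calls of CPA4, SHC2, MATK, NXPH4 and MMP2 were lost when single libraries were left out (highest adjusted p = 0.0775 and 0.123 for CPA4 and MATK, without Ctr 2-2, and 0.13, 0.0805 and 0.0808 for SHC2, NXPH4 and MMP2, without K3R 2-2). Each of the 5 also lost it without K3R 1-1 or 2-2, all except MMP2 without Ctr 1-2, SHC2 and NXPH4 without Ctr 1-1, and MMP2 without Ctr 2-2.

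Among fallen genes of the same minimum level, ZNF704, a zinc finger gene on chromosome 8, showed the deepest change. It measured 18.1, 27 and 19.5 CPM in Ctr and 3.38, 4.5 and 1.48 CPM in K3R, and every K3R library lay far below every Ctr library. The change was a log2 of -2.77 (SE 0.32, edgeR adjusted p = 0.0014). SIRPA, a surface receptor that binds CD47, fell from 4.46, 4.34 and 4.82 CPM to 0.946, 0.649 and 1.17 CPM (log2 -2.30, adjusted p = 0.0014). MVB12B, a subunit of the ESCRT-I complex that sorts cargo into multivesicular bodies, fell from 10.6, 12.7 and 10.7 CPM to 2.16, 3.05 and 1.48 CPM (log2 -2.33). SLC16A9, of the monocarboxylate transporter family, and CA2, a carbonic anhydrase, fell by 2.15 and 1.88 on the log2 scale. LPAR1, a receptor for lysophosphatidic acid, fell by 2.18, as did RHOBTB1, an atypical small GTPase gene. The transcription factor genes BACH2 and TCF7L1 fell by 2.10 and 1.79, the latter encoding a repressor of Wnt target genes. SHROOM3, which draws actin to the apical side of epithelial cells, GRIP1, a scaffold for glutamate receptors, and C1orf21 fell by 1.81, 1.68 and 2.60. Without K3R library 1-1 the calls of LPAR1, RHOBTB1 and CA2 were lost (adjusted p = 0.0889, 0.0673 and 0.151), and that of CA2 also without Ctr 1-1, Ctr 1-2 or K3R 2-2.

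**Figure D2:**
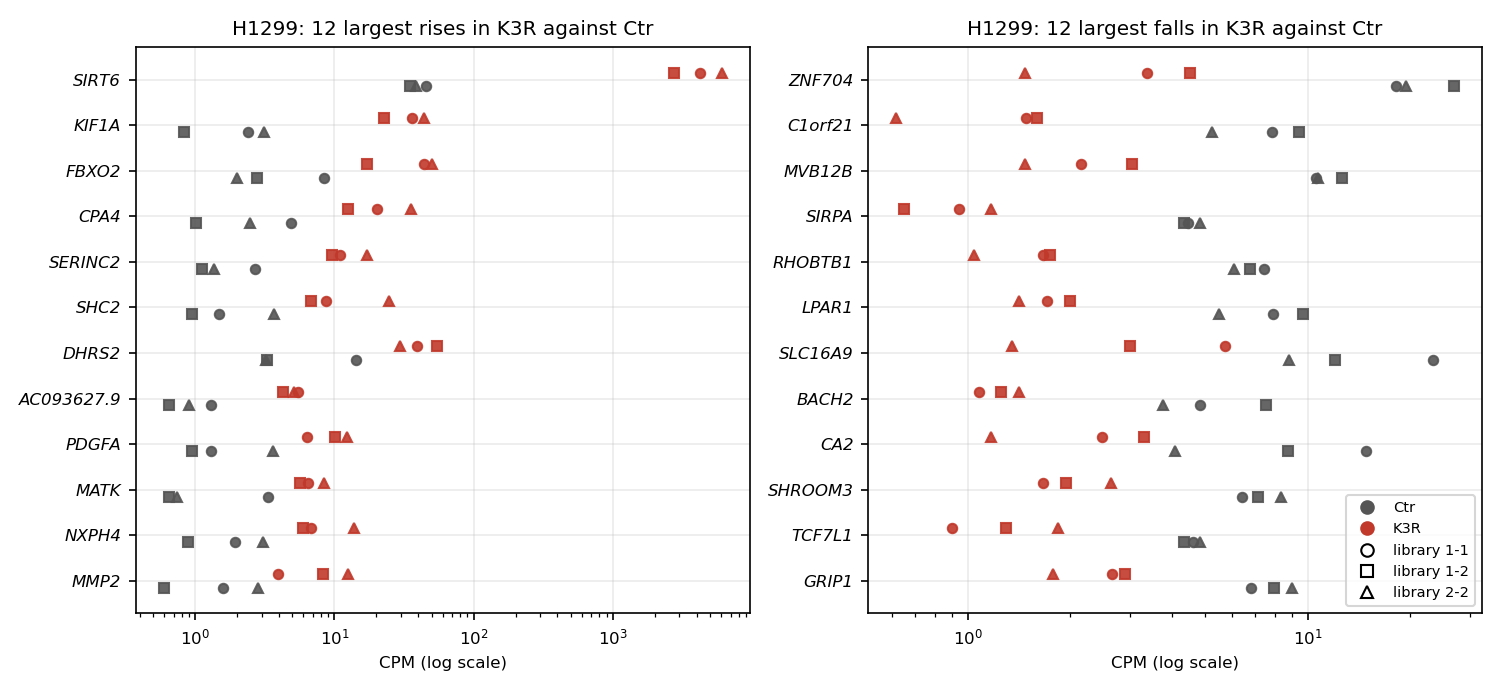
CPM on a log axis in each Ctr (grey) and K3R (red) library for the 12 largest rises and 12 largest falls, with the marker shape giving the library number. In all 24 genes the K3R and Ctr libraries form separate groups, and in the rises the K3R triangle of library 2-2 lies furthest right of the K3R points in all genes except DHRS2 and AC093627.9.

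Retinoid genes moved in both directions. Of 11 tested members 3 rose and 1 fell, against 1.96% and 1.29% of all tested genes. CRABP2, which carries retinoic acid to its nuclear receptor, measured 7.97, 7.13 and 5.33 CPM in Ctr and 29.7, 16.3 and 37 CPM in K3R (log2 2.02, SE 0.32, edgeR adjusted p = 0.00546). DHRS3, which turns retinal back into retinol, rose from 4.73, 2.2 and 2.89 CPM to 9.14, 7.94 and 8.92 CPM (log2 1.42), and DHRS2, a related short-chain dehydrogenase, rose by 2.65. ALDH1A2, which makes retinoic acid from retinal, fell from 5.36, 1.9 and 1.7 CPM to 1.13, 0.2 and 0.308 CPM (log2 -2.44, adjusted p = 0.0116). In all 4 genes the groups did not overlap, although Ctr library 1-1 was the highest Ctr library for each of them. The receptors RARA, RARG and RXRA were at 0.28, -0.07 and 0.13 and did not pass. DHRS2 lost its call without Ctr 1-2 or 2-2 (adjusted p = 0.0556 and 0.0617), DHRS3 without K3R 1-1 (0.0522) and ALDH1A2 without Ctr 1-1 (0.0615).

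Guidance cues of the semaphorin family and their receptors gave 6 calls, as many as the actin regulators and more than the other lists. Of 25 tested members 5 rose and 1 fell, against 1.96% and 1.29% of all tested genes. With the block 8 rose and 2 fell, against 5.14% and 3.42%. The median of the 25 was 0.43 (matched medians 0.26, 0.32 and 0.62) against -0.014 over all tested genes. SEMA6B, a transmembrane semaphorin, rose from 25.4, 13.2 and 9.02 CPM to 32.5, 34 and 50.6 CPM (log2 1.34, adjusted p = 0.0334). SEMA7A, a semaphorin anchored by a lipid, rose by 0.93, and PLXND1, a plexin receptor, rose from 19.5, 19.7 and 19.8 CPM to 29.3, 34.8 and 38.6 CPM (log2 0.79). SEMA4D, a semaphorin that signals through plexin B1, went the other way, from 9.05, 10.3 and 8.91 CPM to 4.28, 3.55 and 3.08 CPM (log2 -1.37, adjusted p = 0.00546). SEMA6B, SEMA7A and PLXND1 each lost the call without Ctr 1-2, Ctr 2-2, K3R 1-1 or K3R 2-2 (highest adjusted p = 0.127, 0.177 and 0.0567), whereas SEMA4D passed without each single library.

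Regulators of the actin cytoskeleton split into 4 rises and 2 falls among 20 tested, against 1.96% and 1.29% of all tested genes. The median of the list was 0.05. Beside TNS1, MYO5B, a myosin motor of recycling endosomes, rose from 6.75, 8.73 and 9.02 CPM to 27.6, 24.8 and 30.2 CPM (log2 1.78, SE 0.20, edgeR adjusted p = 0.00119). TNS3, a second tensin, went opposite to TNS1, from 17.6, 9.27 and 6.07 CPM to 6.21, 3.95 and 2.95 CPM (log2 -1.28). Its groups overlapped, since K3R 1-1 lay above Ctr 2-2, and its call was lost without Ctr 1-1, Ctr 1-2, K3R 1-1 or K3R 2-2 (highest adjusted p = 0.107, without K3R 1-1).

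Collagen genes rose where they passed. Of 18 collagens 3 rose and 0 fell (4 and 0 with the block), against 1.96% and 1.29% of all tested genes (5.14% and 3.42% with the block). The median of the 18 was 0.61. The matched medians were 0.065, 0.67 and 1.01 in libraries 1-1, 1-2 and 2-2, near 0 in the first. COL17A1, a transmembrane collagen of hemidesmosomes, rose from 19, 14.8 and 23.6 CPM to 32.1, 36.6 and 67.6 CPM (log2 1.19), and COL12A1, which coats collagen fibrils, from 42, 56.1 and 46.6 CPM to 85.2, 77.1 and 67 CPM (log2 0.67). COL5A1 stayed low, at 1.53, 0.297 and 0.227 CPM in Ctr and 6.21, 1.3 and 0.923 CPM in K3R, and its groups overlapped (log2 1.95, adjusted p = 0.0305). The 3 collagens lost the call without 3 or 4 of the 6 single libraries, K3R 1-1 and Ctr 2-2 among them for each (highest adjusted p = 0.159 for COL17A1, 0.114 for COL12A1 and 0.297 for COL5A1).

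Of 15 basement membrane genes 2 rose and 2 fell, against 1.96% and 1.29% of all tested genes. LAMA5, the laminin alpha chain of mature epithelial basement membranes, rose from 51.9, 52.2 and 60.3 CPM to 91.3, 92.9 and 132 CPM (log2 0.94, edgeR adjusted p = 0.00356), and AGRN, the proteoglycan agrin, rose by 0.51. LAMC3, a laminin gamma chain, fell from 15.2, 10 and 11.4 CPM to 4.32, 5.5 and 3.94 CPM (log2 -1.40), and NID2, which bridges laminin and collagen IV, fell from 2.52, 1.66 and 1.59 CPM to 0.54, 0.45 and 0.369 CPM (log2 -2.06). Of 15 matrix proteases and inhibitors, MMP2 and the membrane protease MMP17 rose (log2 2.15 and 1.56) and 0 fell. LAMA5 and LAMC3 passed without each single library, NID2 lost its call without K3R 1-1 (adjusted p = 0.0605), and AGRN and MMP17 lost theirs without 5 of the 6 libraries, all except K3R 1-2 (highest adjusted p = 0.144 and 0.0865).

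Genes of the epithelial and mesenchymal states gave calls in both directions. ZEB2, a repressor of E-cadherin transcription, measured 36.4, 44.4 and 49.5 CPM in Ctr and 20.5, 24.3 and 23.9 CPM in K3R, with no overlap (log2 -0.92, SE 0.18, edgeR adjusted p = 0.0151). PRRX1, a homeobox factor of mesenchyme, fell from 5.9, 2.67 and 4.43 CPM to 2.52, 0.999 and 0.985 CPM (log2 -1.55), which made 2 falls and 0 rises among 9 tested transition factors. FN1, fibronectin, was 1 of the 2 that fell among 27 mesenchymal and matrix genes, from 28.9, 12.9 and 16.1 CPM to 11.7, 9.49 and 10.5 CPM (log2 -0.81, adjusted p = 0.0328), and the median of the 27 was 0.01 with 16 above 0 (2 rises and 3 falls with the block). Of 20 epithelial junction genes 2 rose and 1 fell (4 and 1 with the block), against 1.96% and 1.29% of all tested genes (5.14% and 3.42% with the block). LSR, a protein of tricellular junctions, rose by 0.80, PKP3, a plakophilin of desmosomes, rose by 1.00 and the desmosomal cadherin DSC2 fell by 1.21. KRT80, an epithelial keratin, was the 1 of 6 keratins that passed, from 63.7, 82.3 and 60.3 CPM to 149, 156 and 171 CPM (log2 1.21). KRT80 passed without each single library. Without K3R 1-1 the adjusted p was 0.0994 for ZEB2, 0.0786 for PRRX1, 0.205 for FN1, 0.0998 for LSR, 0.101 for PKP3 and 0.0889 for DSC2, and of these 6 only LSR kept its call without each of the other libraries.

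Receptors of the TGF-beta family changed in opposite directions. TGFBR2, the receptor that binds the ligand first, rose from 39.6, 40.8 and 48.3 CPM to 54.6, 59.6 and 76.3 CPM (log2 0.56, adjusted p = 0.0273). TGFBR1, the kinase it activates, fell from 35, 51.1 and 37.2 CPM to 20.4, 30.8 and 29.8 CPM (log2 -0.62, adjusted p = 0.024), and BMPR1B, a receptor for bone morphogenetic proteins, fell by 1.22. In all, 1 of 28 tested genes of the pathway rose and 3 fell (5 and 3 with the block). Over all tested genes 1.96% rose and 1.29% fell (5.14% and 3.42% with the block). The ligands TGFB1, TGFB2 and TGFB3 were at 0.25, 0.90 and 0.55 and did not pass. Without K3R 1-1 the adjusted p was 0.125 for TGFBR2, 0.147 for TGFBR1 and 0.127 for BMPR1B, and each lost its call without at least 2 other libraries.

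Receptor ligands of immune cells and metabolic genes gave few calls. PDCD1LG2, a ligand of PD-1, rose from 0.54, 0.178 and 0.17 CPM to 1.13, 1.25 and 1.29 CPM (log2 1.96, adjusted p = 0.046), at levels close to 1 CPM. HLA-B, a class I molecule, fell from 202, 172 and 198 CPM to 128, 118 and 125 CPM (log2 -0.63, adjusted p = 0.00566), the 1 call among 16 antigen presentation genes (4 rises and 2 falls with the block). HLA-B reads can be split with other class I genes, so its level is uncertain. Of 28 glycolytic and hypoxia-induced genes, PFKP, a phosphofructokinase, rose from 232, 241 and 255 CPM to 353, 323 and 413 CPM (log2 0.58), HK1, a hexokinase, rose by 0.47, and 0 fell. Over all tested genes 1.96% rose and 1.29% fell. NMNAT3, an NAD-synthesis enzyme of mitochondria, fell from 5.81, 7.01 and 6.92 CPM to 2.84, 1.8 and 2.58 CPM (log2 -1.45), the 1 call among 11 NAD enzymes. FGFR3, IGFBP6 and NOTUM rose by 1.81, 1.43 and 1.77, and IGF2BP1, an RNA-binding protein of fetal tissue, fell by 0.34. Without K3R 1-1 the adjusted p was 0.0643 for PFKP, 0.0889 for HK1, 0.15 for PDCD1LG2, 0.0726 for FGFR3, 0.0704 for NOTUM and 0.189 for IGF2BP1, and without Ctr 2-2 it was 0.0607 for IGFBP6, which also lost its call without Ctr 1-2. IGF2BP1 lost its call without each of the 6 libraries in turn, PDCD1LG2 without all except Ctr 1-1, HK1 and FGFR3 also without Ctr 1-2, Ctr 2-2 or K3R 2-2, and NOTUM also without Ctr 2-2 or K3R 2-2. HLA-B and NMNAT3 passed without each library.

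Many pathway lists held no call in this comparison. None of 25 p53 targets, 32 G1/S genes, 32 G2/M genes or 77 ribosomal proteins passed. Nor did any of 24 cholesterol and fatty acid synthesis genes, 14 heat shock genes or 22 interferon-stimulated genes. Over all tested genes 3.25% passed, and at that share a short list holds few calls or none. The medians of these lists lay between 0.039 and 0.102. That of the heat shock genes came mainly from library 2-2 (matched medians -0.131, 0 and 0.572). The 16 inflammatory NF-kB targets had a median of -0.14 with 12 below 0. TRAF1, an adaptor of the TNF receptor, measured 79, 57.2 and 85.3 CPM in Ctr and 45.5, 40.7 and 45.3 CPM in K3R, without overlap (log2 -0.75, edgeR adjusted p = 0.0517 and 0.0166 with the block). Without single libraries its adjusted p ran from 0.0258, without Ctr 1-2, to 0.188. CXCL2, a chemokine for neutrophils, was at -0.57 (edgeR adjusted p = 0.112, 0.00688 with the block and up to 0.38 without single libraries). MYC, the growth-promoting transcription factor, measured 241, 208 and 306 CPM against 182, 182 and 208 CPM (log2 -0.40, edgeR adjusted p = 0.152, 0.033 with the block and up to 0.455 without single libraries). The 24 genes of the ATF4 and unfolded protein response had a median of -0.26, which came mainly from library 2-2 (matched medians -0.014, -0.006 and -0.53).

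**Figure D3:**
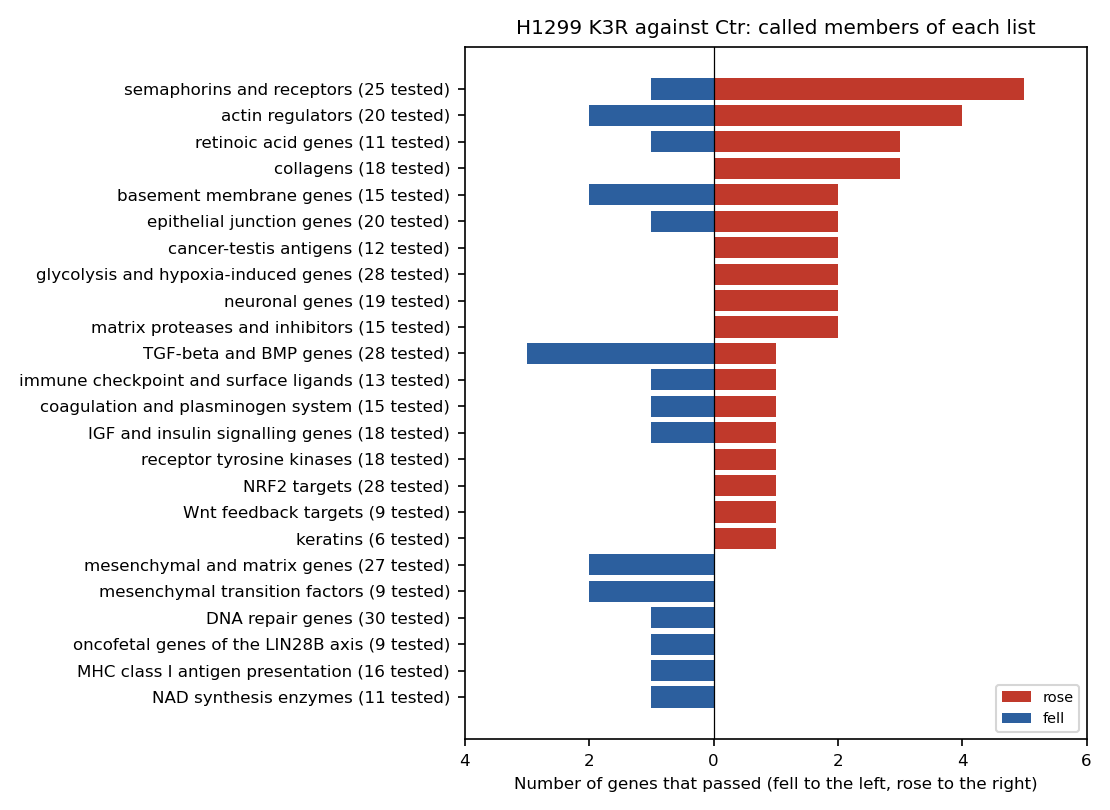
Number of genes that passed in each list with at least 1 call, with rises to the right and falls to the left of 0 and the number tested in parentheses. Semaphorins and their receptors have 5 rises and 1 fall of 25, and TGF-beta and BMP genes have 1 rise and 3 falls of 28.

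The K3R cells were next set beside the WT cells, to ask whether loss of the acetylation sites alters the response. Of 16262 genes 0 passed between K3R and WT with edgeR, with 486 at an unadjusted p under 0.05. DESeq2 also called 0, as did the fit with the block, and 9 genes passed when genes of low count were kept. RP11-97C16.1, ALDH1A2 and RP11-1378G18.2 had the lowest p, each with an adjusted p of 0.999 by edgeR. ALDH1A2 measured 1.82, 2.44 and 1.06 CPM in WT against 1.13, 0.2 and 0.308 CPM in K3R, with 1 K3R library inside the WT range. SIRT6 itself was at 2746, 2457 and 6748 CPM in WT, which overlaps the K3R levels. A test with 0 calls does not show that the 2 forms act alike, and small differences lie below what 3 libraries a group can resolve.

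K3Q, which imitates acetylation, differed from K3R at 73 genes (0.449% of 16262), 15 of them higher (0.0922%) and 58 lower (0.357%) in K3Q. With the block 526 genes passed (3.23%), 178 of them higher (1.09%) and 348 lower (2.14%), and all 73 were among them. The count was 0 without K3Q library 1-1, 4 without K3Q 1-2, 5 without K3Q 2-2, 4 without K3R 1-1, 11 without K3R 2-2 and 82 without K3R 1-2. The level of SIRT6 moves with this comparison. It was 15280, 11160 and 14420 CPM in K3Q against 4220, 2739 and 6035 CPM in K3R, and the part of this difference in the results was not tested.

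TFPI, the inhibitor that shuts down tissue factor coagulation, was among the clearest of these genes. It measured 5.99, 8.73 and 9.42 CPM in Ctr, 17.6, 17.9 and 24.7 CPM in K3R, and 6.39, 8.45 and 8.8 CPM in K3Q. The K3Q libraries thus lay inside the Ctr range and the K3R libraries above both (K3Q against K3R log2 -1.35, SE 0.15, edgeR adjusted p = 0.00366). FAM3C, a secreted factor linked to epithelial to mesenchymal change, was at 70.6, 60.2 and 50.8 CPM in Ctr, 123, 120 and 110 CPM in K3R and 68.9, 56.9 and 53.2 CPM in K3Q (log2 -0.99, adjusted p = 0.00366). SLC6A17, a vesicular transporter of amino acids, was at 13.4, 12 and 18.3 CPM in K3R and 2.63, 4.37 and 4.51 CPM in K3Q, below each Ctr library (4.82, 5.41 and 9.14 CPM). The difference was a log2 of -1.96 (adjusted p = 0.00511). For TFPI and FAM3C the WT libraries lay with K3R, at 18.5 to 21.7 CPM and 115 to 143 CPM.

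MGMT and ZNF711 were, in contrast, lower in K3R than in both Ctr and K3Q. MGMT, whose product removes alkyl groups from guanine and so protects cells from alkylating drugs, measured 19.5, 13.1 and 18.5 CPM in Ctr, 5.18, 6.54 and 6.83 CPM in K3R and 18.3, 21.1 and 13.9 CPM in K3Q. The fall against Ctr was a log2 of -1.46 (SE 0.21, edgeR adjusted p = 0.00408), and the difference of K3Q from K3R was 1.52 (SE 0.21, adjusted p = 0.0129). Against Ctr, MGMT was the 1 call among 30 DNA repair genes (1 rise and 2 falls with the block). That lies near the 3.25% of all tested genes that passed (5.14% rose and 3.42% fell with the block). ZNF711, a zinc finger gene on the X chromosome, was at 3.96, 3.56 and 3.86 CPM in Ctr, 0.9, 0.749 and 0.923 CPM in K3R and 3.46, 2.72 and 3.96 CPM in K3Q (K3Q against K3R 1.99, adjusted p = 0.0129). WT libraries were as low as K3R for MGMT, at 6.04, 4.71 and 6.74 CPM, and held an intermediate level of ZNF711, 1.3 to 2.18 CPM.

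The 3 comparisons against Ctr share the Ctr libraries, so their values are set side by side without a test of likeness. Over the 319 genes that rose with K3R the median was 0.93 for K3R, 0.93 for WT and 0.33 for K3Q, and over the 209 that fell it was -1.06, -0.92 and -0.47. These genes were chosen by the K3R values, which favours a greater change in K3R. KIF1A was at 4.01, 4.22 and 2.92 in K3R, WT and K3Q, SERINC2 at 2.79, 3.20 and 0.07, SIRPA at -2.30, -1.40 and -2.69, and SEMA4D at -1.37, -1.18 and -0.12. MVB12B was close in all 3 forms, at -2.33, -2.27 and -2.04.

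**Figure D4:**
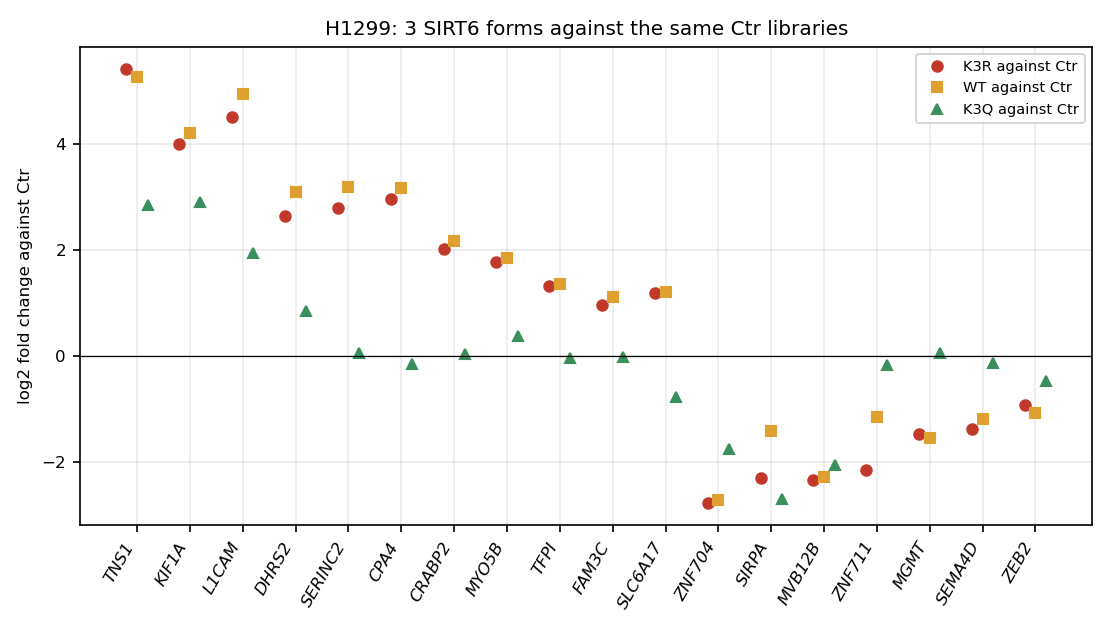
Log2 fold change against the same 3 Ctr libraries for K3R (circles), WT (squares) and K3Q (triangles) in 18 of the named genes, picked after their values were seen. The K3Q triangles of TFPI, FAM3C, CRABP2 and MGMT lie near 0, where K3R is at 1.33, 0.97, 2.02 and -1.46, while those of MVB12B and SIRPA lie with or below K3R.

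The promoters of 4 of these genes are shown because their transcripts separated K3R from K3Q while the promoters differ in their number of CpGs, the dinucleotide that carries most DNA methylation. Each is 250 bases before to 50 after the start in RefSeq (GRCh38.p14), 5′ to 3′ on the gene's strand, with every CpG in capitals. TFPI lies on the minus strand at chr2:187554386-187554685, FAM3C on the minus strand at chr7:121396259-121396558, CRABP2 on the minus strand at chr1:156705735-156706034 and MGMT on the plus strand at chr10:129466991-129467290.
TFPI: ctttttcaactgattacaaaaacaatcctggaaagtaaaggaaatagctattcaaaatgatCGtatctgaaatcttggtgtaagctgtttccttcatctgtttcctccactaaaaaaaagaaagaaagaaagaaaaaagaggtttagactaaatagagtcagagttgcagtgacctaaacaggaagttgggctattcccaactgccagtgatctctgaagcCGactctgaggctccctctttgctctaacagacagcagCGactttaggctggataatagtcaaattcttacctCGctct
FAM3C: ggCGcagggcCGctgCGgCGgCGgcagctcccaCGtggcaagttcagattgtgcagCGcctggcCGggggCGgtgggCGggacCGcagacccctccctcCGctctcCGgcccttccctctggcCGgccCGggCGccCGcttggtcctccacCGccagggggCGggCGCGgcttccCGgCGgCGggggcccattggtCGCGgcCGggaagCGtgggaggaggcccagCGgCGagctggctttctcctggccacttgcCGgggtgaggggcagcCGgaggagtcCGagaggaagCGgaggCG
CRABP2: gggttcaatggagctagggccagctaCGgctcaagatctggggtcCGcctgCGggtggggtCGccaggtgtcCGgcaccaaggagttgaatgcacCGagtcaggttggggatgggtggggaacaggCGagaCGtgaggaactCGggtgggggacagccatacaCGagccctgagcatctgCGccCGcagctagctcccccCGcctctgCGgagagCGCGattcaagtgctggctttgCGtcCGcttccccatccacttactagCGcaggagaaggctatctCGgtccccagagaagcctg
MGMT: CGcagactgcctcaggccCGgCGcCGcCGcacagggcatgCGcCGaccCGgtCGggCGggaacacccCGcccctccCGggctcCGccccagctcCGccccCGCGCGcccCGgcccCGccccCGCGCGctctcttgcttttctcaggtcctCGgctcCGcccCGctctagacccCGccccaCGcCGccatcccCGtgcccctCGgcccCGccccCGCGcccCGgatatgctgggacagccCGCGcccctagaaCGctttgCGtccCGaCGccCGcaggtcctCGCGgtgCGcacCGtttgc
They hold 4, 35, 20 and 45 CpGs in the order shown. For TFPI the annotated gene in GENCODE 29 ends upstream of this start, at 187565760 on the minus strand, so its window and CpG count depend on which start is taken.

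Single-start promoters were found in RefSeq for 164 risen, 112 fallen and 8042 of all tested genes. Median GC content was 69.3% for rises, 68.8% for falls and 66.0% for all, and the median number of CpGs was 30, 29 and 27. The E-box CAGGTG, a sequence that ZEB and SNAI repressors bind, was present on either strand in 26.2% of risen, 12.5% of fallen and 18.1% of all promoters. CRABP2 is 1 of the 43 risen genes with it. The AP-1 element TGACTCA was present in 4.27%, 1.79% and 2.81%, and the FOXA element TGTTTAC in 2.44%, 3.57% and 2.1%. The CRE element TGACGTCA was present in 1.83%, 2.68% and 3.72%, and the TEAD element GGAATG in 12.8%, 10.7% and 10.5%. Few promoters stand behind some of these shares. AP-1 was in 7 risen and 2 fallen promoters, FOXA in 4 and 4, and CRE in 3 and 3. These shares describe the letters in the promoter windows and carry no test.

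The position of the called genes was looked at after the results were known. Positions were taken from GENCODE 29 by symbol, which matched 14212 of the 16262 tested genes. Among the 14212 genes 310 rose and 199 fell. Of 123 tested genes that start at or beyond 130 Mb of X, 24 rose and 0 fell, against 13 rises and 7 falls among 377 genes in the rest of X. Their median was 0.34 on the log2 scale, with matched medians of 0.39, 0.28 and 0.40 in libraries 1-1, 1-2 and 2-2, and 99 of 123 lay above 0. In the rest of X the median was -0.04. Over 253 bins of 10 Mb with at least 20 tested genes the medians ran from -0.25 to 0.38, and the highest outside X was 0.25. That bin, from 100 Mb of chromosome 14, held 9 rises and 0 falls among 55 genes. Its matched medians were 0.19, 0.21 and 0.37. The bin from 0 Mb of chromosome 19 held 22 rises and 0 falls among 225 genes, with a median of 0.18. SIRT6 itself, whose own locus is at 4174109-4182604, is 1 of these 22, and its counts include the introduced transcript. The median of the 123 genes was 0.26 for WT and 0.09 for K3Q. In A549 cells 96 of them were tested, and their median for K3R was 0.01. Why these genes moved together was not tested.

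Members of this stretch include adhesion, cytoskeletal and tumour antigen genes. L1CAM and FLNA, an actin crosslinker, rose by 4.52 and 0.62. BCAP31, a protein of the endoplasmic reticulum, IRAK1, a kinase of interleukin-1 signalling, and ATP6AP1, a subunit of the proton pump of acidic organelles, rose by 0.54, 0.54 and 0.70. The cancer-testis antigens MAGEA3 and MAGEA12, which are close copies and can share reads, rose by 0.43 and 0.48. They were the 2 calls among 12 such genes (6 with the block), where 1.96% of all tested genes rose (5.14% with the block). Since both lie in this stretch, with its median of 0.34, the count does not set the antigens apart from their neighbours. Both lost the call without K3R 1-1 (edgeR adjusted p = 0.177 and 0.155), Ctr 1-1, Ctr 2-2 or K3R 2-2. MAGEA3 also lost it without K3R 1-2 (0.0855). Leaving out these X genes, 295 rises and 209 falls remained.

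**Figure D5:**
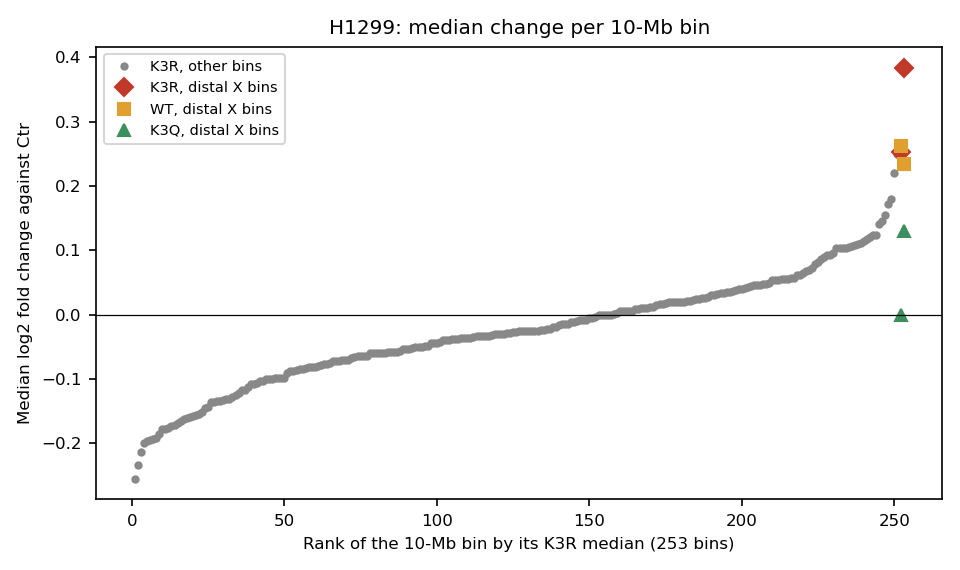
Median log2 fold change against Ctr in each of 253 bins of 10 Mb, ordered by the K3R median. The 2 bins of distal X (diamonds) are at 0.25 and 0.38 for K3R, and the K3Q medians of the same bins (triangles) are at 0 and 0.13.

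Neighbouring genes also moved together elsewhere. Among risen genes 53 lay in 25 runs of adjacent called genes, and among fallen genes 14 lay in 7 runs. FAM20C, PDGFA and PRKAR1B form a run of 3 risen genes on chromosome 7 at 192969-727650, WNT16 and FAM3C a pair on the same chromosome at 121325367-121396364, and PBX3 and MVB12B a pair of fallen genes on chromosome 9 at 125747345-126507041.

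In A549 cells 19 of 16120 genes passed between K3R and Ctr (0.118%), and the difference between the lines was tested directly. The effect of K3R differed between H1299 and A549 at 86 of 18102 genes (0.475%), 47 with a higher and 39 with a lower log2 change in H1299, and at 301 with the block. Without single libraries the count was 30 to 90, lowest without H1299 K3R 1-1, and it was 36, 38, 39, 40, 41, 46 and 54 without A549 K3R 1-1, H1299 Ctr 2-2, H1299 K3R 2-2, H1299 Ctr 1-2, A549 Ctr 1-1, A549 K3R 1-2 and A549 Ctr 1-2. TFPI had a log2 change of 1.33 in H1299 and -0.32 in A549 (difference 1.66, SE 0.18, edgeR adjusted p = 0.000215). FAM210A, a mitochondrial membrane protein, rose from 52.7, 55.2 and 46.6 CPM to 118, 109 and 124 CPM in H1299 and was at -0.06 in A549 (difference 1.25, adjusted p = 0.00106). TNS1 was at -0.30 in A549 (difference 5.75, adjusted p = 0.00118). NID2 was called in both lines with opposite sign, at -2.06 in H1299 and 1.61 in A549 (difference -3.66, adjusted p = 0.000237). SHROOM3 and MVB12B were at 0.13 and -0.27 in A549 (differences -1.94 and -2.05). In contrast, KIF1A was at 2.49 in A549, and its difference between the lines did not pass.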

How the data were processed

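The deposited table holds raw counts of reads for 59385 gene symbols in 24 libraries. Per the submitters' processing notes, FastQC, cutadapt, STAR and featureCounts were used with GRCh38, with no version, annotation or strand setting stated. From these counts, edgeR 4.0.16 (R 4.3.3) fitted construct and batch to the 12 H1299 libraries after filterByExpr and TMM scaling, and its quasi-likelihood test was adjusted by Benjamini-Hochberg over 16262 genes with a threshold of 0.05. CPM values are TMM-scaled, and SE is the absolute log2 change over the square root of F. The interaction with A549 used all 24 libraries.

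Library numbers paired the samples: deviations from the group means, batch included, correlated at 0.255, 0.417 and 0.31 for like numbers. All other pairs were below 0, which adds little, since deviations from a group mean sum to 0. The replicate number was therefore also fitted as a block.

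The named genes are SIRT6 and the other sirtuins, the 12 largest rises and falls among passing genes of mean log2 CPM 1 or more that moved alike in 3 matched differences, up to 4 passing members of each list (or 2 of lowest p), and the 3 of lowest p in each other comparison. Some genes that this rule covers are not reported here, though they enter the counts. Genes named outside it were chosen after their values were seen. The members and lists were chosen with earlier results of these data known. Alternatives were no batch term, the block, RLE scaling, no filter, DESeq2 1.42.0, only 6 or all 24 libraries, biological replicate 1 summed, batch 2 alone and leaving out each library. Promoters and positions come from RefSeq (GRCh38.p14) and GENCODE 29, which may differ from the submitters' annotation.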

Additional observations from a re-analysis of the deposited data

Results flagged for a closer look

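The effect of K3R differed between H1299 and A549 cells at 86 genes by an interaction test over both lines (edgeR, adjusted p under 0.05), and 20 of the genes named here were among them. Each value is the log2 change in H1299 minus that in A549. The difference was above 0 for TNS1 (5.75), SERINC2 (2.87), COL5A1 (2.70), PDGFA (2.37), AC093627.9 (2.18), TFPI (1.66), MYO5B (1.44), FAM210A (1.25), FAM3C (1.02) and LAMA5 (1.00). It was below 0 for NID2 (-3.66), ZNF704 (-2.80), MVB12B (-2.05), SHROOM3 (-1.94), LPAR1 (-1.88), SIRPA (-1.60), SEMA4D (-1.47), MGMT (-1.35), TNS3 (-1.25) and HLA-B (-0.83). Of these 20 genes NID2 alone passed in A549 as well, with the opposite sign. No cause was tested.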

How the results depend on the processing

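With 3 libraries a group, small changes of lowly expressed genes lie below what this design can show. K3R against Ctr gave 330 calls with no batch term, 1392 with the replicate block, 1276 with no low-count filter, 921 with DESeq2, 44 with biological replicate 1 summed, 20 in batch 2 alone, 143 with only the 6 libraries, 1681 with these and the block, and 102 to 553 without single libraries. K3Q against K3R gave 33, 526, 650, 337, 0 and 0 calls in the first 6 of these settings and 0 to 82 without single libraries (the edgeR fits of summed libraries and of batch 2 alone, with 0 calls, had 1144 and 978 genes at an unadjusted p under 0.05). For the H1299 minus A549 difference the counts were 22, 301, 434, 240, 1 and 6, and 30 to 90 without single libraries. K3R against WT gave 9 calls with no filter and 0 with no batch term, the block, RLE scaling, DESeq2, summed libraries, batch 2 alone and without single libraries, the settings run for it. With the replicate block over 12 libraries the pairing lost no call among the 528 and added 14 of the 47 named genes that had not passed, and with the block over only the 6 libraries 515 of the 528 passed. Of 74 named genes that passed, 9 passed under every alternative and 31 without each of the 6 libraries, and 62 lost their call in batch 2 alone. SIRT2, at 0.17, ranged from -0.025 without K3R 2-2 to 0.32 without K3R 1-2 and passed in none of these fits. Causes were not tested.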
